A study of Mus musculus with 3 samples.

Results

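Malat1, Neat1, Meg3, Rian, Mirg, Snhg11, Miat and Rmst are long noncoding RNA genes transcribed in the adult mouse brain. They were taken by gene symbol from the deposited feature lists, where each symbol stood once, and made up 8 of 32285 listed genes. Their counts of unique molecular identifiers (UMIs, the tags that mark single captured RNA molecules) were compared across cell classes and neuron subclasses of the medial prefrontal cortex, and across 3 single-cell libraries.

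The libraries were made on the 10x Genomics droplet platform from papain-dissociated medial prefrontal cortex of mice. One library came from 2 females in estrus, one from 2 females in diestrus and one from 2 males, so that sex and estrous stage were each represented by 1 pool of 2 mice. Strain, age and any genotype or treatment were not given in the sources used here. The labels call the cells neurons, but marker genes showed glia and vascular cells in all 3 libraries, and the protocol in the labels names no sort.

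A long noncoding RNA is processed like a messenger RNA or kept as a nuclear transcript but is not known to act through a protein product. Malat1 accumulates in nuclear speckles, bodies rich in splicing factors, and Neat1 is the scaffold around which paraspeckles form. Meg3, Rian and Mirg lie one after another on the same strand of the imprinted Dlk1-Dio3 domain, are expressed from the maternal chromosome and are the hosts of microRNAs and small nucleolar RNAs. Snhg11 hosts small nucleolar RNAs, Miat (also called Gomafu) is a nuclear RNA with repeats that resemble the intron branch point sequence, and Rmst is known as a partner of the transcription factor Sox2 in neural progenitors.

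The 3′ ends of Malat1 and Neat1 are shown because both genes are known for the same arrangement there. In both, U-rich stretches pair with a genome-encoded A-rich stretch into a triple helix. A transcript that ends there is released by RNase P rather than by ordinary cleavage and polyadenylation. Each stretch is from the longest of 4 annotated transcripts of its gene. The Malat1 stretch lies at chr19:5795966-5796074 and the Neat1 stretch at chr19:5824708-5824807, both on the minus strand of GRCm38 and both within a single exon of the gene (GENCODE M21). The capitals mark both U-rich stretches and the A-rich stretch of each gene.
Malat1 3′ end: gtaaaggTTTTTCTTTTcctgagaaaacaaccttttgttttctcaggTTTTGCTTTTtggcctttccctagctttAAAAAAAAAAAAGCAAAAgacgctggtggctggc
Neat1 3′ end: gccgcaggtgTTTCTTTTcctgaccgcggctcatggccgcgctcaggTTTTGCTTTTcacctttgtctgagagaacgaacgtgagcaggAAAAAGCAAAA
The longest run of A in the Malat1 transcript of 6983 bases was 12 letters. Of 2550 annotated transcripts of 6000 to 8000 bases, 497 (19.5%) held a run at least as long, this Malat1 transcript among them.

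A stretch of Miat is shown because its repeats are the feature the RNA is known for. The capitals mark ACTAAC, the core of the branch point sequence, in transcript bases 4937 to 5077 of the 9163-base spliced transcript from the minus strand of chromosome 5.
Miat: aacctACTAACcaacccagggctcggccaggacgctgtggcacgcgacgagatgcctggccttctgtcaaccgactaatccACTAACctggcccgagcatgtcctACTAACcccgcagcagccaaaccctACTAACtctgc
The Miat transcript held ACTAAC 11 times and the longer TACTAAC 6 times. Only 2 of 937 annotated transcripts of 8000 to 10000 bases (0.213%) held TACTAAC at least 6 times, this Miat transcript among them. The median over the 937 was 0.

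The promoter of Meg3 is shown because Meg3, Rian and Mirg had much the same order of levels across cell classes, and the domain's maternal transcripts are thought to start there. It is the RefSeq window from 250 bases before to 50 bases after the start at chr12:109540746-109541045, plus strand (GRCm38.p6), with capitals for TGACGTCA (the cyclic AMP response element) and TATATAAA (a TATA box).
Meg3 promoter: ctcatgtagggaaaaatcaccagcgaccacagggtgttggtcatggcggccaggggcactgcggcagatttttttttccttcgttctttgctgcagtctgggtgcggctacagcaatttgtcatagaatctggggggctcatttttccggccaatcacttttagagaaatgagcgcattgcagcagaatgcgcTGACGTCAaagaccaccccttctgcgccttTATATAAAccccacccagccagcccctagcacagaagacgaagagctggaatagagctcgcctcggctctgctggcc
TGACGTCA stood 57 bases and TATATAAA 27 bases before the start. Searched on both strands, TGACGTCA was found in 1.79% and TATATAAA in 1.40% of 32851 promoters of the same length. Of 7 listed promoters of 6 members, only the Meg3 window held either.

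The domain's hosts differ in what they carry. RefSeq places 2 microRNA genes with a listed mature product within Meg3, 3 within Rian, 14 within Mirg and 2 within Rmst, and a further 13 between Meg3 and Rian and 25 between Rian and Mirg. Mature microRNAs were not measured by these libraries, so the sequences below only show what the measured hosts contain. The capitals mark the seed, bases 2 to 8, which pairs with target RNAs.
mmu-miR-770-5p (in Meg3): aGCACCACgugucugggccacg
mmu-miR-370-3p (in Rian): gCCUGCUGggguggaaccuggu
mmu-miR-134-5p (in Mirg): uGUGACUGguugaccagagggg
mmu-miR-453 (in Mirg): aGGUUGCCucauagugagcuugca
mmu-miR-496a-5p (in Mirg): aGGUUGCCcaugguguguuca
mmu-miR-135a-5p (in Rmst): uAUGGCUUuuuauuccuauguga
The seeds of mmu-miR-453 and mmu-miR-496a-5p are the same. Over the whole domain, 105 mature microRNAs had 97 different seeds, of which 8 were shared by more than 1 microRNA.

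Cells were assigned to a class from fixed marker genes, none of them a member. Between 12459 and 15783 barcodes per library passed the quality limits, with a median of 3992 (male) to 6234 (estrus) UMIs, and 71.4% to 88.4% of them entered 8 classes. Glutamatergic neurons numbered 1343, 1664 and 1575 in the estrus, diestrus and male libraries, GABAergic neurons 162, 313 and 302, and oligodendrocyte precursors, the smallest glial class, 104, 188 and 166. In every class and library, all of the class's own markers were detected. The cells were assigned by these same markers, so this is no separate check of the classes. Depth differed between libraries: the median glutamatergic neuron held 37550, 26704 and 13060 UMIs. Between 46 and 55 barcodes were shared by each pair of libraries, at most 0.409% of the smaller one. In each library, 339 to 769 cells lay within 5 percentage points of the 70% marker share that the assignment required. Levels below are a gene's UMIs per 1000000 UMIs of nuclear genes (CPM), summed over the cells of a class in 1 library.

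Snhg11, Miat, Meg3, Rian and Mirg were higher in both neuron classes than in any non-neuronal class, and Neat1 was lower in both. Malat1 was lower in neurons on average over classes. Rmst was highest in astrocytes, followed by glutamatergic neurons. All 8 passed the test for neurons (glutamatergic and GABAergic) over 6 non-neuronal classes in edgeR's quasi-likelihood test with Benjamini-Hochberg adjustment over all genes, at an adjusted p of 0.05. The background is wide: 72.8% of 17478 genes passed, 38.5% upward and 34.3% downward. The 3 libraries, which differ in sex or estrous stage, served as replicates of a class, and the fit held a term for each library. The p-values therefore rest on the scatter left after shifts common to a library, pooled over all classes of the fit. In sums over cells of a class, fewer molecules per cell and fewer cells that express the gene cannot be told apart.

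**Figure D1:**
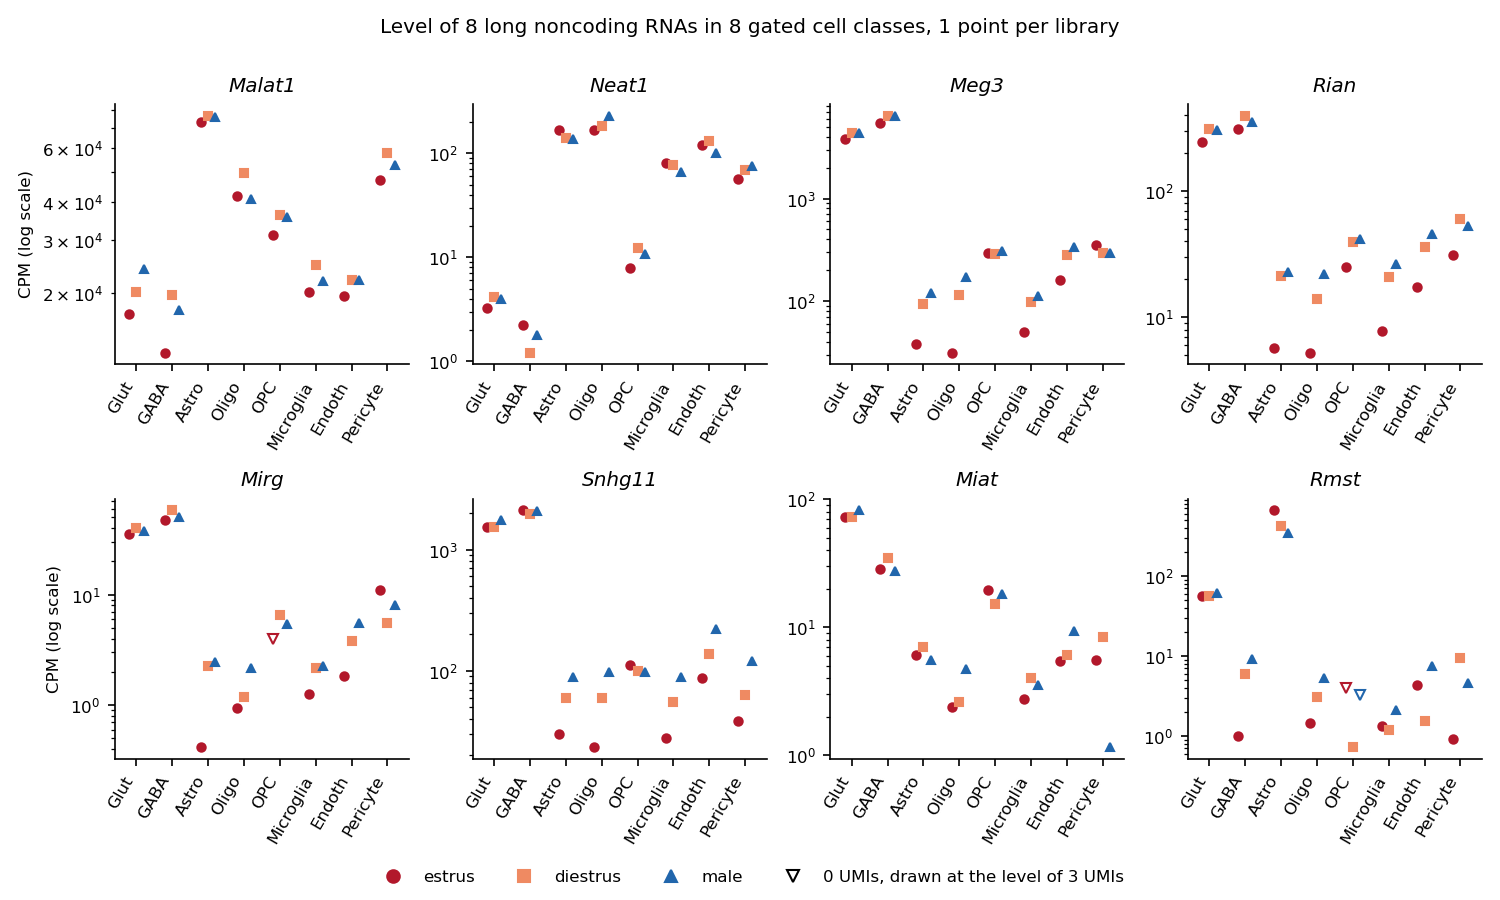
Level of each of the 8 RNAs by cell class in CPM on a log axis, with 1 point per library (estrus, diestrus, male). Meg3, Rian, Mirg and Snhg11 sat highest in both neuron classes in all 3 libraries, Malat1 in astrocytes, and Neat1 lowest in neurons.

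Malat1 was highest in astrocytes, at 73220, 76499 and 75764 CPM in the estrus, diestrus and male libraries. All 3 astrocyte values lay above every pericyte value (47128, 57950 and 52738 CPM), the next class in order. Pericytes overlapped with oligodendrocytes (41794, 49717 and 40912 CPM), and these were followed by oligodendrocyte precursors (31155, 36012 and 35681 CPM). The lowest classes were microglia, endothelial cells, glutamatergic neurons (17049, 20252 and 24050 CPM) and GABAergic neurons (12759, 19716 and 17575 CPM), which overlapped with their neighbours in the order.

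Malat1 fell in neurons by 1.10 on the log2 scale (SE 0.11, edgeR adjusted p = 9.66e-09) relative to the non-neuronal classes. Against the other 5 non-neuronal classes, it was 1.17 higher in astrocytes (SE 0.13, edgeR adjusted p = 7.14e-08). It was 0.74 lower in microglia and 0.92 lower in endothelial cells, and these calls held in each alternative run. The difference in oligodendrocytes (0.60, edgeR adjusted p = 0.000525) was lost without the diestrus library. Between neuron classes, Malat1 was 0.48 lower in GABAergic than in glutamatergic neurons (SE 0.18, edgeR adjusted p = 0.0441), a call that ended in 5 alternatives, among them clusters in place of the marker assignment, cells thinned to equal depth and leaving out the diestrus or the male library.

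Neat1 was highest in oligodendrocytes, at 167, 182 and 229 CPM in the estrus, diestrus and male libraries, and in astrocytes, at 169, 140 and 137 CPM. These classes overlapped. Endothelial cells held 119, 132 and 100 CPM, microglia 65.4 to 80.6 CPM and pericytes 57.0 to 76.2 CPM. Oligodendrocyte precursors stood far below the mature oligodendrocytes, at 7.89, 12.3 and 10.8 CPM from 6, 17 and 10 UMIs. Glutamatergic neurons held 3.26, 4.18 and 4.02 CPM, and GABAergic neurons 2.23, 1.21 and 1.78 CPM from 9, 6 and 8 UMIs. Outside the 8 tested classes, border macrophages (51, 63 and 38 cells) held 429, 443 and 371 CPM, above every value of the tested classes, and smooth muscle cells (163, 176 and 56 cells) held 241, 332 and 384 CPM.

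Neat1 fell in neurons by 4.95 on the log2 scale (SE 0.17, edgeR adjusted p = 2.49e-16). Within the non-neuronal classes it was higher by 1.95 in oligodendrocytes (SE 0.13, edgeR adjusted p = 1.01e-11) and by 1.15 in astrocytes, and it was lower by 3.65 in oligodendrocyte precursors (SE 0.24, edgeR adjusted p = 2.98e-11). These calls held in each alternative. The lower level in GABAergic than glutamatergic neurons (−1.32, edgeR adjusted p = 0.00238) was lost without the diestrus library, with clusters and in thinned cells.

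Meg3 was highest in GABAergic neurons, at 5522, 6422 and 6351 CPM in the estrus, diestrus and male libraries, followed by glutamatergic neurons at 3830, 4363 and 4390 CPM. The classes did not overlap in these sums, and both stood far above pericytes, at 354, 297 and 292 CPM. Oligodendrocyte precursors held 294, 289 and 309 CPM. Endothelial cells held 160, 280 and 340 CPM, and astrocytes were lowest or next to lowest at 38.3, 94.2 and 121 CPM.

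Rian, next in the domain, held 309, 395 and 355 CPM in GABAergic and 247, 313 and 303 CPM in glutamatergic neurons. Its neuron classes overlapped across libraries, but within each library the GABAergic value was the higher. Mirg, the last of the 3 hosts, held 46.9, 57.8 and 50.7 CPM in GABAergic and 35.6, 40.0 and 38.0 CPM in glutamatergic neurons, without overlap. Both were far lower in the other classes. Pericytes held 5.58 to 11 CPM Mirg from 6 to 12 UMIs, overlapping with oligodendrocyte precursors (0, 6.51 and 5.39 CPM).

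All 3 imprinted hosts rose in neurons over non-neuronal cells. The log2 differences were 4.95 for Meg3 (SE 0.17, edgeR adjusted p = 2.78e-16), 3.74 for Rian (SE 0.13) and 3.89 for Mirg (SE 0.15). GABAergic over glutamatergic differences were 0.37 for Meg3 (SE 0.31, edgeR adjusted p = 0.402), 0.13 for Rian and 0.27 for Mirg. None passed the test, although the Meg3 and Mirg sums did not overlap and all 3 hosts were higher in GABAergic neurons in each of 3 libraries. The SE is drawn from all 8 classes of the fit rather than from the neuron classes alone. Without the estrus library, Meg3 (0.41, edgeR adjusted p = 0.0283) and Mirg (0.34, edgeR adjusted p = 0.0327) passed. Within the domain, glutamatergic neurons held 6.45, 7.16 and 6.90 Rian UMIs and 0.93, 0.92 and 0.87 Mirg UMIs per 100 Meg3 UMIs. GABAergic neurons held 5.6, 6.15 and 5.6 Rian UMIs per 100 Meg3 UMIs. The ratio was higher in every non-neuronal class, from 8.48 in estrus oligodendrocyte precursors (19 Rian UMIs) to 23.5 in male microglia (201 Rian UMIs), and astrocytes held 14.9, 22.6 and 19.

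The imprinted hosts were higher in pericytes than the average of the other 5 non-neuronal classes, although single classes overlapped: male endothelial cells (340 CPM) and oligodendrocyte precursors (309 CPM) held more Meg3 than male pericytes (292 CPM). Meg3 was higher by 1.04 (SE 0.24, edgeR adjusted p = 0.00159), Rian by 0.97 (SE 0.25, edgeR adjusted p = 0.00328) and Mirg by 1.61 (SE 0.45, edgeR adjusted p = 0.00702). The Meg3 call held in each alternative. The Rian call was lost without the diestrus library or the library block, and the Mirg call without the estrus library (0.95, edgeR adjusted p = 0.147).

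Part of the Meg3 signal outside neurons sat in few cells. An alternative chosen after seeing the data counted UMIs over 8 long neuronal genes (Kcnip4, Kcnh7, Kcnq5, Fgf14, Asic2, Rbfox1, Dlgap2 and Frmpd4) and set apart the oligodendrocytes, microglia, endothelial cells and pericytes with 3 or more. Among endothelial cells these were 2.29%, 4.22% and 5.16% of cells in the estrus, diestrus and male libraries, and they held 82.0%, 81.8% and 82.8% of the class's Meg3 UMIs. Their Meg3 level was 2580, 2506 and 2604 CPM, against 30.4, 56.0 and 65.6 CPM in the remaining endothelial cells. The endothelial cells set apart were also deeper, with medians of 10735, 7239 and 4831 UMIs against 4593.5, 3550 and 2098. They held 516, 795 and 873 CPM of the neuronal gene Snap25, against 82.9, 324 and 415 CPM. The part of depth in this split was not tested. Pericytes differed: the cells set apart held 14.0%, 24.8% and 33.2% of the class's Meg3 UMIs, and the remaining pericytes still held 332, 267 and 223 CPM.

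Without those cells, Meg3 turned from 0.85 higher in endothelial cells (SE 0.23, edgeR adjusted p = 0.00355) to 0.97 lower (edgeR adjusted p = 0.000373), and Rian from 0.55 higher to 0.49 lower. The higher Snhg11 level there (1.17) became −0.30. Clusters in place of the marker assignment gave −0.43 for Meg3, −0.21 for Rian and 0.09 for Snhg11. In pericytes the 3 differences grew, to 1.85 for Meg3, 1.33 for Rian and 2.31 for Mirg. In astrocytes, where Meg3 was 1.22 lower (edgeR adjusted p = 0.000638), the call was lost (−0.18). Astrocytes and oligodendrocyte precursors were left whole here, since 32.5% to 52.3% and 93.4% to 97.1% of their own cells passed that limit, so the alternative is one-sided.

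**Figure D2:**
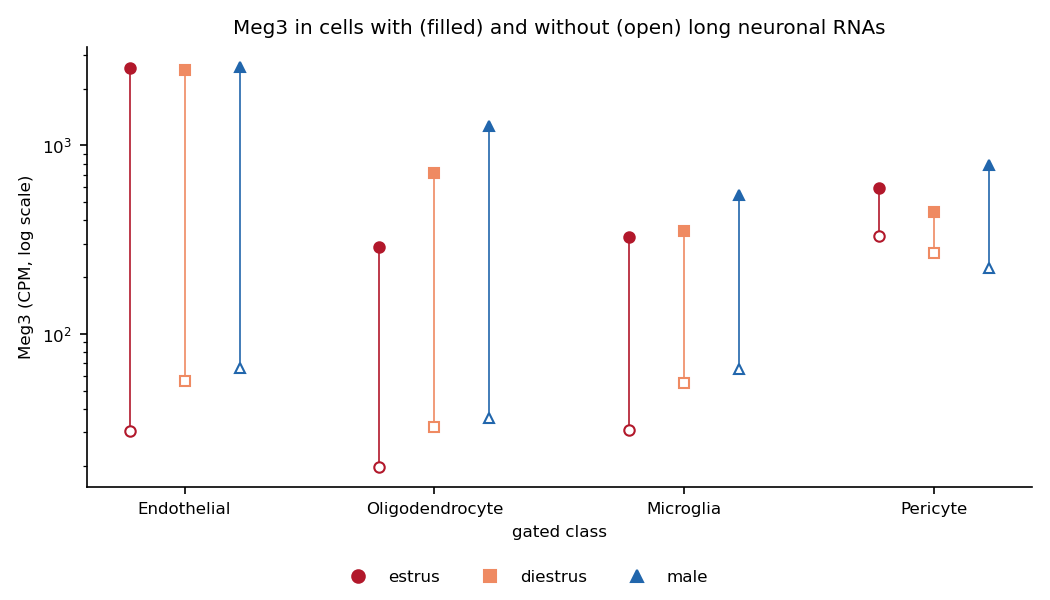
Meg3 level in CPM on a log axis in non-neuronal cells with and without 3 or more UMIs over 8 long neuronal genes, by class and library. Endothelial cells separate most, at 2506 to 2604 CPM against 30.4 to 65.6 CPM, and pericytes without such UMIs stay at 223 to 332 CPM.

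Meg3 was also higher in oligodendrocyte precursors than the average of the other 5 classes (0.83, SE 0.25, edgeR adjusted p = 0.0079), 2.11 with clusters and 1.75 with the cells above set apart in the other classes. Without the diestrus library the call was lost (edgeR adjusted p = 0.0807).

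Snhg11 followed the neuronal pattern at 2108, 1965 and 2071 CPM in GABAergic and 1522, 1547 and 1743 CPM in glutamatergic neurons. The classes did not overlap in these sums. Endothelial cells came next by the mean, at 87.5, 137 and 222 CPM, overlapping with oligodendrocyte precursors, at 112, 99.8 and 98.1 CPM, and microglia held 27.6, 55.5 and 88.8 CPM. Snhg11 was higher by 4.60 in neurons (SE 0.15, edgeR adjusted p = 1.44e-16). Its GABAergic over glutamatergic difference of 0.20 (SE 0.27, edgeR adjusted p = 0.61) did not pass, with an SE again drawn from all classes of the fit. The annotation lists Snhg11 as protein-coding with 2 small nucleolar RNAs within it.

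Miat was highest in glutamatergic neurons, with 72.6, 72.7 and 82.1 CPM in the estrus, diestrus and male libraries. GABAergic neurons held 28.3, 34.8 and 27.5 CPM, less in every library. Oligodendrocyte precursors followed at 19.7, 15.2 and 18.3 CPM from 15, 21 and 17 UMIs, and the other 5 classes held 1.15 to 9.29 CPM. The neuron over non-neuronal difference was 2.94 (SE 0.12, edgeR adjusted p = 2.53e-15). Miat was 1.5 lower in GABAergic than glutamatergic neurons (SE 0.18, edgeR adjusted p = 1.35e-06) and 1.58 higher in oligodendrocyte precursors than in the other 5 non-neuronal classes (SE 0.27, edgeR adjusted p = 5.1e-05). All 3 calls held in each alternative.

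Rmst had its highest level in astrocytes, at 664, 428 and 341 CPM in the estrus, diestrus and male libraries, and its next in glutamatergic neurons, at 55.5, 55.8 and 61.4 CPM. GABAergic neurons held 0.993, 5.87 and 9.11 CPM. In oligodendrocyte precursors it was counted 0, 1 and 0 times, where a count of 0 allows up to 3.94 CPM in the estrus and 3.23 CPM in the male library. An Rmst UMI was seen in 84.3%, 69.5% and 59.2% of astrocytes and in 0%, 0.532% and 0% of oligodendrocyte precursors, whose median depth was higher than that of astrocytes in each library (6847.5, 6652.5 and 5376.5 against 5268, 4865.5 and 3878.5 UMIs). With each cell thinned to 2000 UMIs, the astrocyte shares were 61.7%, 50.5% and 43.4%.

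Rmst was 7.88 higher in astrocytes than in the other 5 non-neuronal classes (SE 0.29, edgeR adjusted p = 6.79e-16) and 3.60 lower in GABAergic than glutamatergic neurons (SE 0.45, edgeR adjusted p = 1.76e-06). It also passed for neurons over non-neuronal classes (1.72, SE 0.40, edgeR adjusted p = 0.000586), a contrast that averages log levels over classes, so that 1 high non-neuronal class weighs as much as each near-empty one. Of 8 members, 4 passed for GABAergic over glutamatergic neurons, all lower (Miat, Rmst, Malat1 and Neat1), where 35.4% of genes passed and 21.1% were lower. Without the diestrus library 2 members passed, and without the estrus library 6.

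Read per non-neuronal class, 6 members passed in astrocytes (background 56.4% of genes), 5 in oligodendrocytes (58.2%), 5 in oligodendrocyte precursors (47.2%), 3 in microglia (62.3%), 5 in endothelial cells (55.2%) and 3 in pericytes (39.7%). Without the diestrus library, 1 passed in oligodendrocytes, 3 in oligodendrocyte precursors and 3 in endothelial cells. Calls not described above were lower levels of Rian (−0.77) and Mirg (−1.01) in astrocytes, of Miat (−0.71), Rian (−0.74) and Mirg (−0.86) in oligodendrocytes, and of Miat (−0.78) and Meg3 (−0.96) in microglia. Each was lost in at least 1 alternative. So were the lower Malat1 (−0.45) and Rmst levels in oligodendrocyte precursors, with clusters among other settings. Neat1 was 0.83 higher in endothelial cells (SE 0.13, edgeR adjusted p = 1.79e-05) in each alternative.

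Neurons were divided further by marker scores into subclasses, named after the marker set (intratelencephalic, IT; extratelencephalic, ET; near-projecting, NP; corticothalamic, CT), and each is a range of scores rather than a proven type. Between 107 and 142 cells per library lay within 0.05 of the required score margin. The 6 tested glutamatergic subclasses held 64 to 390 cells per library, and each was tested against the other 5 over 14155 genes. L6b-like neurons (5, 38 and 28 cells) were not tested.

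Rmst marked L4/5 IT-like neurons, with 84.9, 114 and 116 CPM in the estrus, diestrus and male libraries. The other subclasses held 27.9, 50.5 and 28.1 CPM (L2/3 IT-like), 39.1, 30.4 and 32.9 CPM (L6 IT-like), 16.9, 41.1 and 35.9 CPM (L5/6 NP-like), 11, 13.4 and 15.0 CPM (L6 CT-like) and 5.54, 10.8 and 42.3 CPM (L5 ET-like). Every L4/5 IT-like value stood above every value of the other 5 tested subclasses. The difference was 2.15 (SE 0.17, edgeR adjusted p = 3.85e-10) and held in each alternative, as did the lower level in L6 CT-like neurons (−1.44, SE 0.25, edgeR adjusted p = 4.6e-05). The lower level in L5 ET-like neurons (−1.26) was lost without the diestrus library.

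Miat was highest in L5 ET-like neurons, at 108, 102 and 118 CPM, and lowest in L5/6 NP-like neurons, at 45.1, 49.8 and 40.7 CPM. No value of the other tested subclasses fell outside this range. The differences were 0.79 (SE 0.07, edgeR adjusted p = 4.31e-09) and −0.76 (SE 0.10, edgeR adjusted p = 5.54e-07), and both held in each alternative.

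Meg3 was high in the L5/6 NP-like (5944, 6560 and 6482 CPM) and L5 ET-like neurons (5486, 5376 and 6492 CPM), and low in L2/3 IT-like neurons (3114, 4008 and 3686 CPM). The L5 ET-like difference was 0.44 for Meg3 (edgeR adjusted p = 1.31e-05) and 0.57 for Rian (edgeR adjusted p = 3.39e-07), and the L2/3 IT-like difference was −0.42 for Meg3 and −0.41 for Rian. These 4 calls held in each alternative. The L5/6 NP-like differences of Meg3 (0.54) and Snhg11 (0.46) were lost with clusters, at 0.08 and 0.05. The Rian difference there was smaller (0.20), with 5.59, 5.59 and 5.24 Rian UMIs per 100 Meg3 UMIs, the lowest ratio among the tested glutamatergic subclasses.

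Malat1 went the other way in L5/6 NP-like neurons, at 13032, 15204 and 15993 CPM, against 19228, 24336 and 28832 CPM in L2/3 IT-like and 18291, 23310 and 26570 CPM in L6 IT-like neurons. The difference of −0.54 (SE 0.07, edgeR adjusted p = 1.85e-06) held in each alternative. In each library the L5/6 NP-like value was the lowest of the 6 tested subclasses. So was the median mitochondrial share, at 1.82%, 2.49% and 2.29%, against 2.86%, 4.15% and 5.59% in L2/3 IT-like neurons, and its part in the Malat1 level was not tested.

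**Figure D3:**
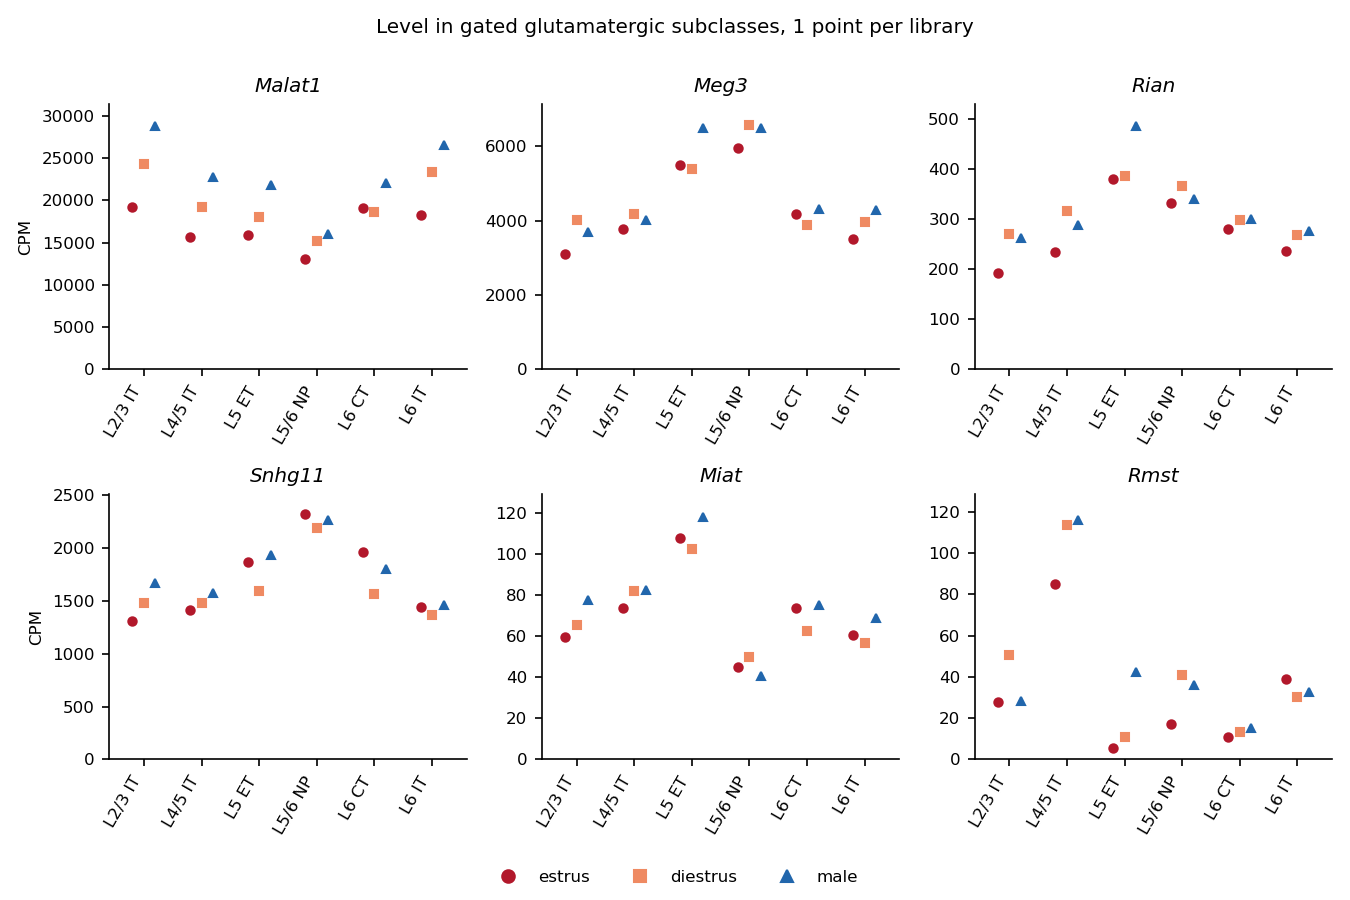
Level of members in CPM by glutamatergic subclass, with 1 point per library. Rmst peaks in L4/5 IT-like neurons at 84.9 to 116 CPM, Miat in L5 ET-like neurons at 102 to 118 CPM, and Malat1 is lowest in L5/6 NP-like neurons.

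By subclass, 4 members passed in L2/3 IT-like neurons (background 39.3%), 5 in L4/5 IT-like (31.1%), 5 in L5 ET-like (30.2%), 6 in L5/6 NP-like (42.1%), 1 in L6 CT-like (33.4%) and 4 in L6 IT-like neurons (26.7%). Without the diestrus library, 1 passed in L4/5 IT-like and 1 in L6 IT-like neurons. Without the male library these counts were 3 and 2, and without the estrus library 2 passed in L6 CT-like neurons. The calls not given above had differences no larger than 0.51 in size, and each was lost in at least 1 alternative. The largest was Mirg in L5 ET-like neurons (0.51), lost in thinned cells.

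Among the 3 tested GABAergic subclasses, Meg3 was lowest in Lamp5-like neurons, at 4274, 4849 and 4973 CPM from 23, 49 and 32 cells, against 6223, 8176 and 7154 CPM in Vip-like and 5869, 7217 and 7329 CPM in Sst-like neurons. Rian held 254, 293 and 255 CPM in Lamp5-like and 325, 485 and 412 CPM in Vip-like neurons. The Lamp5-like Meg3 values lay below those of both other tested subclasses. Sncg-like neurons (15, 30 and 32 cells), which were not tested, overlapped with them, at 3937, 5668 and 5089 CPM Meg3 and 242, 354 and 297 CPM Rian. The differences were −0.62 for Meg3 (SE 0.11, edgeR adjusted p = 3.7e-05) and −0.61 for Rian (SE 0.11, edgeR adjusted p = 3.36e-05), and both held in each alternative.

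In Lamp5-like neurons 3 members passed (background 21.6% of 9764 genes), the other being Malat1 (−0.38), lost in 5 alternatives. In Vip-like neurons 2 passed (18.9%), Meg3 and Rian at 0.40 each, and both were lost without the diestrus library. None of 6 tested members passed in Sst-like neurons (24.4%) in edgeR, where 3 had an unadjusted p under 0.05. Pvalb-like neurons (14, 25 and 37 cells) were not tested and held Miat at 4.48, 6.23 and 4.35 CPM from 2, 4 and 4 UMIs, with Meg3 at 6029, 8246 and 7272 CPM.

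The Malat1 share of a cell's UMIs differed with the depth at which the cell was captured. In glutamatergic neurons with 5000 to 10000 UMIs it was 73650, 48267 and 44884 CPM in the estrus, diestrus and male libraries. In those with 20000 to 40000 UMIs it was 15861, 17766 and 18804 CPM. The shallower cells also held more mitochondrial UMIs, with a median of 10.3% to 11% against 2.92% to 3.32%, and the part of depth or RNA quality in the Malat1 level was not tested.

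Across glutamatergic neurons, Spearman's rho of Malat1 with UMIs per cell was −0.32, −0.29 and −0.47, and with the mitochondrial share 0.32, 0.42 and 0.42, over 1343, 1664 and 1575 cells. The points share the library, and UMIs per cell are the denominator of the level. The same rho with UMIs per cell was −0.19, 0.01 and 0.02 for Meg3. For Snhg11 it was −0.45, −0.45 and −0.54, steeper than for Malat1, and with the mitochondrial share 0.38, 0.44 and 0.44. Between the 10th and the 90th percentile, single glutamatergic neurons ranged from 5239 to 57790 CPM Malat1 in the estrus, from 7286 to 51557 in the diestrus and from 10591 to 62454 in the male library. Astrocytes held 67693, 77278 and 81295 CPM at 3000 to 6000 UMIs and 76214, 81764 and 76469 CPM at 6000 to 12000 UMIs. Across astrocytes, rho of Malat1 was opposite in sign to that in glutamatergic neurons. It was 0.13, 0.28 and 0.34 with UMIs per cell and −0.29, −0.39 and −0.32 with the mitochondrial share.

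**Figure D4:**
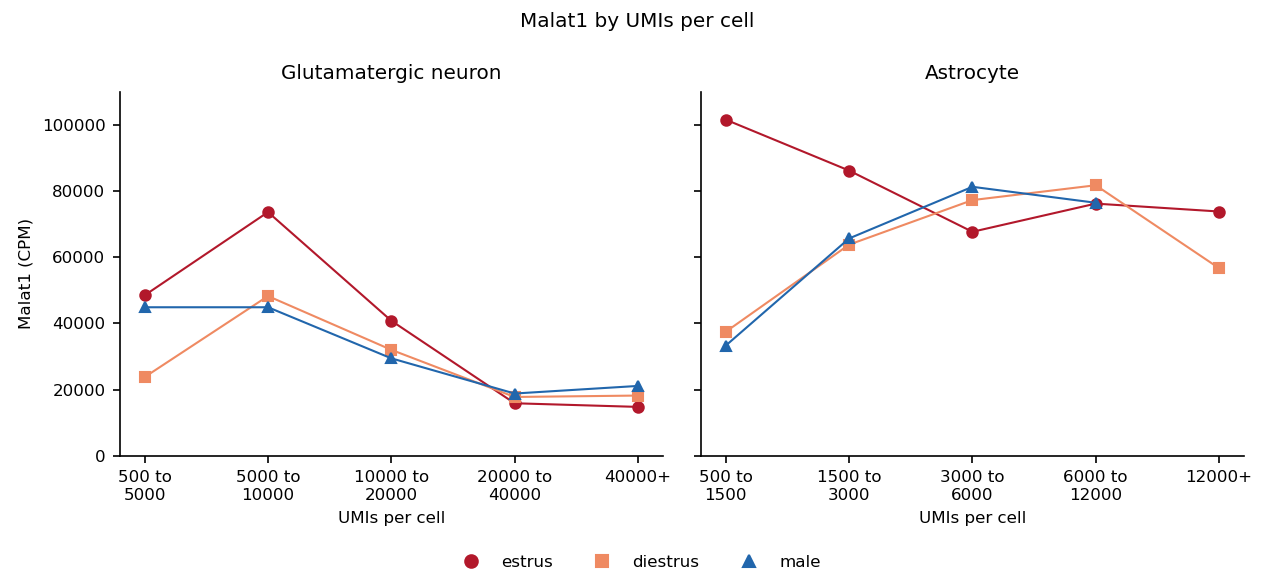
Malat1 level in CPM by UMIs per cell, for each library. In glutamatergic neurons it falls from 44884 to 73650 CPM at 5000 to 10000 UMIs to 15861 to 18804 CPM at 20000 to 40000 UMIs. Over a narrower and lower range, 3000 to 12000 UMIs, astrocytes lie between 67693 and 81764 CPM. Across all astrocytes, Spearman's rho with UMIs per cell was 0.13, 0.28 and 0.34 in the estrus, diestrus and male libraries.

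Estrus, diestrus and male libraries were then compared within each class. With 1 library per group there is no test, and the 95% intervals (Clopper-Pearson on the UMIs of a pair, expressed as log2 ratios) cover counting error only. Members with a mean of at least 20 CPM were read, and a ratio past 1.5-fold was counted. In glutamatergic neurons, none of 7 members passed that fold in any of 3 pairs, where 5.88% (estrus over diestrus), 9.72% (estrus over male) and 0.613% (diestrus over male) of all genes did.

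In GABAergic neurons, 1 of 6 members passed: Malat1 was lower in estrus than diestrus (−0.63, interval −0.64 to −0.61, background 14.5%), and thinned cells gave −0.42, inside the fold. No member passed in the other pairs, where 10.9% (estrus over male) and 1.64% (diestrus over male) of genes did. Of cells assigned to this class by markers, 98.8%, 80.2% and 85.4% had the same name by cluster in the estrus, diestrus and male libraries.

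Rmst was the only member higher in the estrus library past that fold. In astrocytes its log2 ratio was 0.63 (interval 0.56 to 0.71) over diestrus and 0.96 (interval 0.89 to 1.03) over male, from 4785, 2067 and 2225 UMIs. The background was 11.3% and 12.4% of genes, and 3 of 5 members passed in each pair, against none of 6 for diestrus over male (1.63%). Within astrocytes of 3000 to 6000 UMIs the levels were 620, 439 and 331 CPM, in the same order. Thinning put the estrus over diestrus ratio at 0.48 and a mitochondrial limit of 5% put it at 0.56, both inside the fold.

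The other ratios past the fold in glial and vascular cells belonged to Meg3, Snhg11 and Rian, which were lower in estrus, and to Snhg11 alone for diestrus over male. Meg3 in oligodendrocytes was 31.3, 116 and 173 CPM in estrus, diestrus and male, with log2 ratios of −1.85 and −2.43 for estrus over diestrus and over male (background 8.09% and 9.51%, and 1.19% for diestrus over male). In astrocytes its ratios were −1.28 and −1.63. Snhg11 in microglia was 27.6, 55.5 and 88.8 CPM, with ratios of −0.98 and −1.65 (background 9.4% and 14.9%) and −0.67 for diestrus over male (1.32%). Rian in endothelial cells was 17.6, 35.8 and 45.6 CPM, with ratios of −0.99 and −1.33 (background 17.2% and 26.6%, and 6.33% for diestrus over male). In pericytes Snhg11 ran 38.6, 63.2 and 121 CPM, with ratios of −0.70, −1.63 and −0.93 for the 3 pairs (background 21.4%, 24.1% and 10.9%). In oligodendrocyte precursors Rian passed in both pairs, but its intervals included 0 (background 18.7% and 16.9%), and none of 4 members passed for diestrus over male (9.68%).

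Snap25, a synaptic protein gene of neurons, ran in the same order in the same cells, and its part in these ratios was not tested. Its level was 62.1, 191 and 232 CPM in oligodendrocytes, 97.6, 349 and 410 CPM in microglia, 82.0, 263 and 321 CPM in astrocytes and 105, 367 and 464 CPM in endothelial cells of the estrus, diestrus and male libraries. All 6 pan-neuronal markers were detected in these classes, with a sum of 217, 631 and 866 CPM in astrocytes against 7200, 8360 and 8236 CPM in glutamatergic neurons. Per 100 Snap25 UMIs, Meg3 was 46.7, 35.9 and 37.6 in astrocytes, 50.4, 60.5 and 74.8 in oligodendrocytes, where estrus was lowest, and 154, 151 and 170 in glutamatergic neurons. In pericytes it was 255, 62.9 and 53.9 and in endothelial cells 153, 76.2 and 73.2, the highest in estrus. With the cells above set apart, the oligodendrocyte Meg3 levels were 19.6, 32.1 and 35.8 CPM and the ratios −0.68 and −0.84, those of Snhg11 there went from −1.30 and −2.01 to −0.55 and −0.97, and no member passed the fold between diestrus and male in any class.

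**Figure D5:**
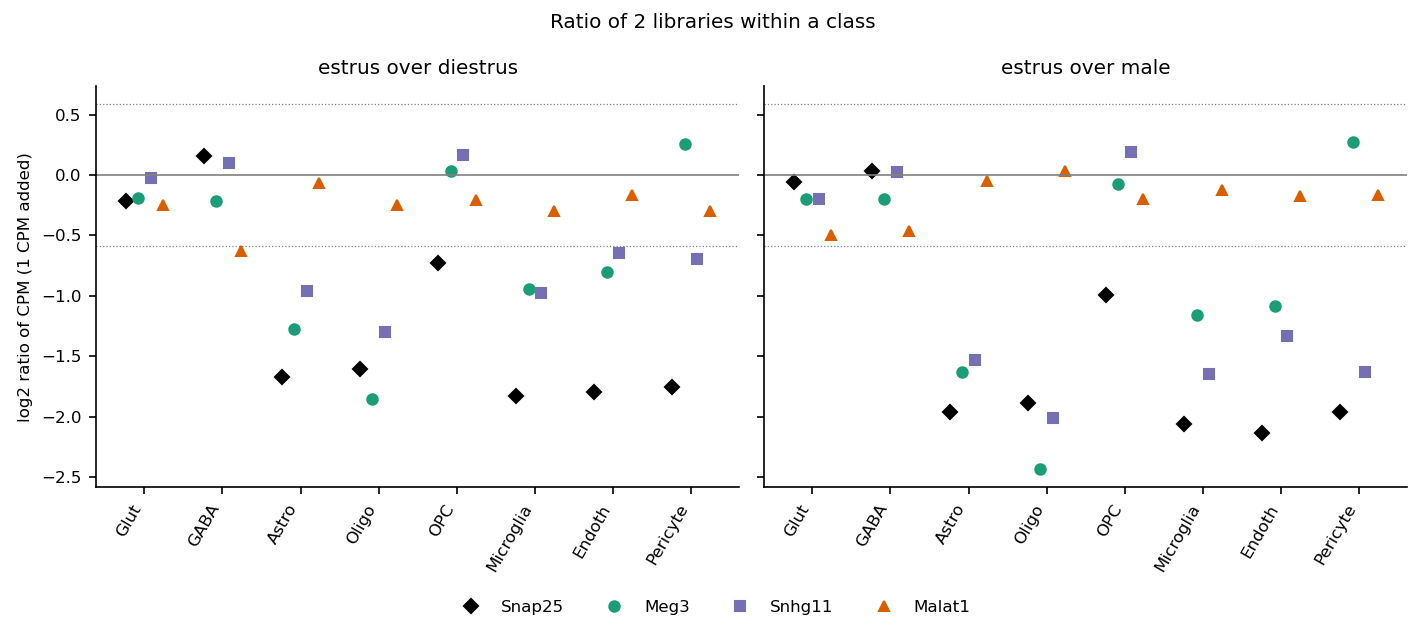
Log2 ratio of CPM of Snap25, Meg3, Snhg11 and Malat1 within each class, for estrus over diestrus and estrus over male. Dotted lines mark 1.5-fold, and no intervals are drawn. Meg3 in oligodendrocytes lies lowest (−1.85 and −2.43).

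Genes related to the members by known biology were read in the neuron over non-neuronal contrast, where the median over all genes was 0.00 and, as above, 38.5% of all genes rose and 34.3% fell. Of 6 tested further genes of the imprinted domain and its flanks, 4 rose and 2 fell (median 0.41), with Rtl1 (4.17), a retrotransposon-like gene read from the other parental chromosome, and Begain (2.20) highest and Yy1 (−0.37) and Wdr25 (−0.31) lowest. Of 13 paraspeckle protein genes, 4 rose and 7 fell (median −0.21), with Ewsr1 at 0.28, Nudt21 at 0.26 and Sfpq at −0.36. Of 11 nuclear speckle genes, none rose and 7 fell (median −0.25), with Son, the speckle scaffold protein, at −0.99 and the splicing factors Srsf2, Srsf6 and Srrm1 at −0.48, −0.25 and −0.25.

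Of 5 genes for known protein partners of Miat and Rmst, 1 rose and 4 fell (median −0.42). Celf3, a neuronal splicing regulator, was 3.20 higher, while Qk (−3.48), a glial RNA-binding protein, Sox2 (−1.69), the neural progenitor and astrocyte factor, and Sf1 (−0.37), the branch point binding protein, were lower. Of 30 other long noncoding RNAs tested, 17 rose and 9 fell (median 0.51). Snhg14 (3.83) and Mir124a-1hg (3.72), host of a neuronal microRNA, were highest, and Snhg18 (−2.70) and Snhg5 (−0.95) lowest.

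Likeness of pattern was measured as Pearson's r of log2(CPM + 1) over 45 profiles (15 classes and subclasses in 3 libraries), among 8391 genes. Profiles share libraries, depth and the neuron to glia contrast, so r is a description only. Among the genes reported here, Meg3 was most like B830012L14Rik (0.987), Ttc3 (0.975) and Clvs1 (0.971), Rian like B830012L14Rik (0.977) and Celf4 (0.975), and Mirg like Scn2b (0.964) and B830012L14Rik (0.961). Snhg11 was most like Clvs1 (0.986), Mtus2 (0.979) and Syt1 (0.978), and Miat like Pcnx2 (0.953) and Lmtk3 (0.947). Malat1 was most like Gramd3 (0.880) and Rftn2 (0.879), and Neat1 like Hadh (0.938), Pon2 (0.931) and Dazap2 (0.930). Rmst had the weakest matches, Slc20a1 (0.802), Dkk3 (0.802) and Bmpr1b (0.790). Between members, r was highest for Meg3 with Rian (0.991) and lowest for Meg3 with Neat1 (−0.913).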

How the data were processed

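The deposited values were raw UMI counts per gene and cell barcode, made with Cell Ranger on mm10. The submitters' processing notes give version 3.0.2 and the file headers 7.0.0, and no source used here gives the gene annotation, intron counting or use of strand. Antisense genes are annotated opposite Malat1, Meg3, Miat and Rmst, so reads of the pairs could be mixed. Gm26945 overlaps Rian on the same strand, so strand could not tell reads of that pair apart. Barcodes were kept with at least 500 genes, at most 15% mitochondrial UMIs, at most 5% haemoglobin UMIs and a Scrublet doublet score of at most 0.3, a common limit used because the automatic one marked 705, 0 and 0 barcodes. It removed 223, 138 and 202. A cell took the class whose markers were detected in the largest share, with at least 3 markers and 70% of all marker UMIs. The share of cells that entered no class was 9.62%, 26.4% and 24.4% (estrus, diestrus, male). Subclasses needed 2 markers and a score margin of 0.25.

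Counts were summed per library and class and tested with edgeR 4.0.16 (quasi-likelihood, TMM, filterByExpr, library as block, adjusted p of 0.05) in R 4.3.3. Each library holds cells of every class from the same mice, which is where the pairing comes from. DESeq2 1.42.0, clusters from scanpy 1.11.5, thinned cells, other filters and leaving out each library were alternatives. On simulated data 94% of 200 changed genes among 16267 were recovered, and 5.53% of the calls were false. The simulation changed few genes and gave the libraries no difference but depth, unlike these data. Library ratios had 1 CPM added. Depth was 152291602, 144738154 and 115632520 UMIs. Sequences came from GENCODE M21 and RefSeq (GRCm38.p6); all 8 members matched the annotation by symbol.

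The members, marker sets and gene lists were chosen with earlier results of these data known. The genes named were the members, the 3 genes most like each member at 20 mean CPM or more, and of each list the 2 passing genes with the highest and the 2 with the lowest difference; some genes that this rule names are not reported here. Snap25 was read as a check of neuronal RNA.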

Additional observations from a re-analysis of the deposited data

How the results depend on the processing

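Of 69 calls of a member in a contrast, 31 held in every alternative run and 38 were lost in at least 1. Leaving out a replicate meant leaving out a whole library. For GABAergic over glutamatergic neurons, 4 members passed, 2 with clusters and 2 in thinned cells. For endothelial cells, 5 passed, 3 with clusters and 3 in thinned cells. For L4/5 IT-like neurons, 5 passed, 2 with clusters and 1 in thinned cells. For L6 CT-like neurons 1 passed and 3 did with clusters, for L6 IT-like neurons 4 and 1 in thinned cells, for Vip-like neurons 2 and 1 in thinned cells, and for Sst-like neurons 0 and 1 with no filter on low counts. Without the library as replicate block, 2 members passed in place of 4 for L2/3 IT-like neurons, 1 in place of 5 for L4/5 IT-like neurons, 0 in place of 4 for L6 IT-like neurons and 0 in place of 2 for Vip-like neurons, with the other counts within 1.5 times. Reversed differences were Rmst in oligodendrocyte precursors (0.039), Meg3 (−0.43) and Rian (−0.21) in endothelial cells, and Rian (−0.013) and Mirg (−0.037) in L5/6 NP-like neurons with clusters, and Snhg11 (−0.30), Meg3 (−0.97) and Rian (−0.49) in endothelial cells without those that held neuronal RNA, an alternative chosen after seeing the data. The cause of these changes was not tested. Member and class pairs past 1.5-fold went from 14 to 9 for estrus over diestrus at a mitochondrial limit of 5%, and from 4 to 0 for diestrus over male with clusters and also without the cells that held neuronal RNA. Depth limits members in classes with few UMIs, such as Neat1 in GABAergic neurons and Mirg, Miat and Rmst in pericytes and oligodendrocyte precursors. Leaving out 1 library at a time gave 2 to 6 members for GABAergic over glutamatergic neurons, 1 to 6 for oligodendrocytes (5 with all libraries), 3 to 5 for oligodendrocyte precursors (5), 3 to 5 for endothelial cells, 1 to 4 for L4/5 IT-like, 1 to 2 for L6 CT-like, 1 to 3 for L6 IT-like and 0 to 2 for Vip-like neurons, with the lowest counts without the diestrus library except in L6 CT-like neurons. The other 9 contrasts stayed within 1.5 times.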
